A study of Mus musculus with 16 samples.

Results

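Lungs of old and young male mice collected at lights off were compared across 15626 genes on 8 Affymetrix arrays, taken from a series of 16 arrays. The old mice were 18 months old and weighed 35 to 45 g, and the young mice were 2 months old and weighed 20 to 25 g. All were C57BL/6J, an inbred laboratory strain with no engineered allele, kept on chow under 12 h of light a day, and lights off is zeitgeber time 12 (ZT12). The members were chosen by their labels: 4 arrays titled old ZT12 and 4 titled young ZT12, with 4 old and 4 young arrays from lights on (ZT0) serving as a second age comparison. Age and body weight changed together between these groups, so what belongs to age and what to weight cannot be told apart. Titles carry replicate numbers 1 to 4 but do not state that each sample was its own animal, and p-values here measure the spread among the samples as deposited, which may be technical. Each value is a log2 level for a frozen piece of a lung that had been flushed with cold saline, and a difference of 1 is a 2-fold change. In such bulk RNA, fewer cells of a type and less RNA per cell cannot be told apart.

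Lung is a mixture of alveolar epithelium, airway epithelium, vessels, connective tissue and blood-derived cells, and its transcripts cycle over the day under the circadian clock. The lung of an ageing mouse is known for gathering lymphocytes, for slower turnover of collagen and elastin, and for shifts in stress and immune transcripts. Lights off is when a nocturnal mouse becomes active and when the clock repressors of the lung are near their daily high. The 8 arrays carried the markers of whole lung: the surfactant gene Sftpc lay between 13.25 and 13.35, the club cell gene Scgb1a1 between 13.28 and 13.44, the alveolar type 1 gene Ager between 12.36 and 12.57 and the vessel gene Pecam1 between 11.65 and 11.74. None of these 4 genes separated the ages.

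With all 8 arrays, 0 of 15626 genes (0%) passed limma's test at an adjusted p under 0.05, and the smallest adjusted p was 0.122. At an unadjusted p under 0.05 there were 2273 genes (14.5%), 1364 of them higher (8.73%) and 909 lower (5.82%) in old lungs. In 1103 genes (7.06%) the 4 old arrays did not overlap the 4 young arrays, with 683 higher (4.37%) and 420 lower (2.69%) in old lungs. By sign alone 51.8% of genes were higher and 48.2% lower in old lungs. Leaving out any array other than young replicate 4 also gave 0 calls. Without young replicate 4, 297 genes (1.9%) were called, 179 higher (1.15%) and 118 lower (0.755%) in old lungs.

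**Figure D1:**
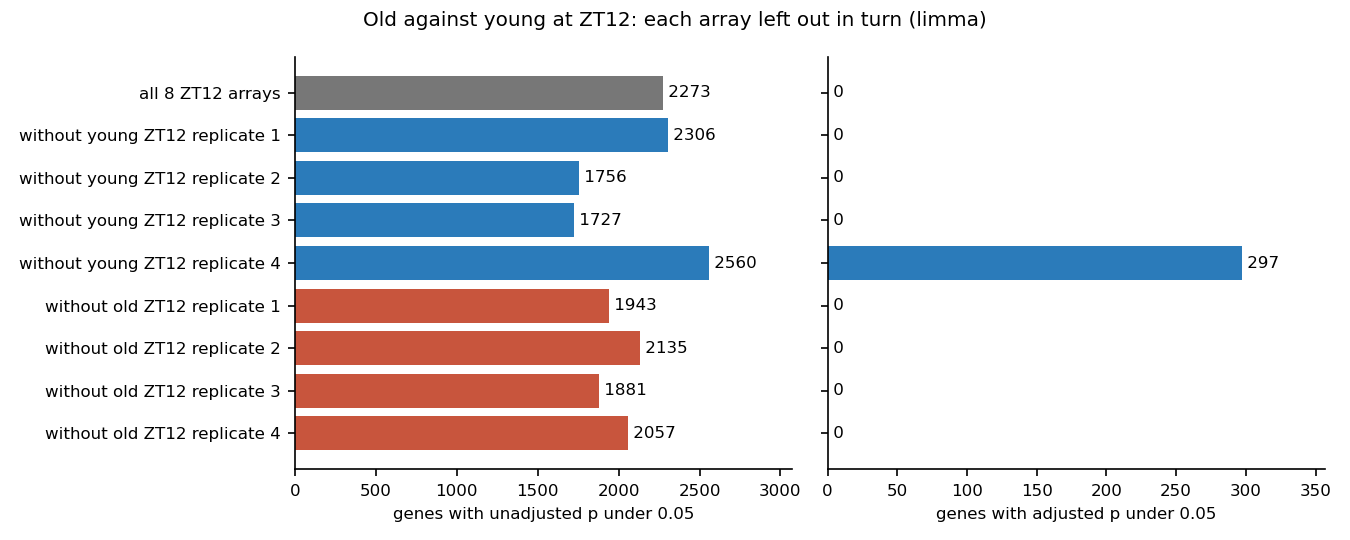
Number of genes that differed between old and young lungs at ZT12 when each of the 8 arrays was left out in turn (limma, 15626 genes), at an unadjusted p under 0.05 (left) and at an adjusted p under 0.05 (right). The grey bar is the fit with all 8 arrays; 297 genes were called without young replicate 4 and 0 in each other fit drawn here.

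Young replicate 4 was singled out because of its values, so the calls made without it are a description beside the fit with all arrays. The genes called at ZT0 were chosen with none of the ZT12 arrays in the contrast, although these arrays entered the estimate of the spread. On the 218 genes called higher in old lungs at ZT0, the array medians were -0.11, -0.13 and -0.13 in young replicates 1 to 3 and 0.08 in young replicate 4. In old replicates 1 to 4 they were 0.25, 0.04, 0.29 and 0.14. On the 106 genes called lower in old lungs at ZT0, the medians were 0.08, 0.06 and 0.12 in young replicates 1 to 3, -0.09 in young replicate 4, and from -0.14 to -0.05 in the old arrays. The fourth young array therefore lay inside the old range on both sets, and the other young arrays lay outside it. Its correlation across genes averaged 0.983 with the other young ZT12 arrays and 0.987 with the old ones. Of the 297 genes called without it, it was nearer the old mean than the mean of the other young arrays in 242, and within the range of the old arrays in 161. Nothing in the labels sets this sample apart, and whether it came from the age its label gives was not tested.

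**Figure D2:**
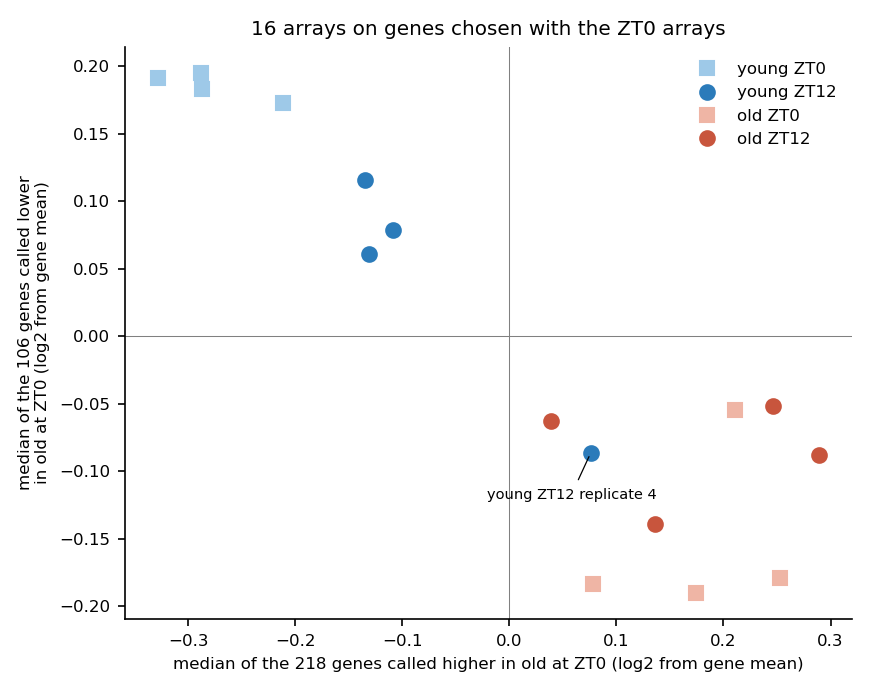
Position of the 16 arrays on genes chosen with the ZT0 contrast: each point is an array, the x axis is its median over the 218 genes called higher in old lungs at ZT0 and the y axis its median over the 106 called lower, both as log2 distance from the gene's mean. Young ZT12 replicate 4 sits at 0.08 and -0.09, inside the old ZT12 range on both axes, while the ZT0 arrays are placed by the choice of genes.

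The 12 genes that separated all 8 arrays by the largest amounts in the upward direction included a membrane transporter, receptors of immune cells and cilium genes. Slc6a20a, an amino acid transporter, was at 7.61, 7.71, 7.52 and 8.18 in young replicates 1 to 4 and at 8.41, 8.66, 8.47 and 8.50 in old replicates 1 to 4. Every old array was above every young array, young replicate 4 was the highest young array, and the difference was 0.75 (SE 0.13, 1.69-fold, adjusted p = 0.122). Adgre4, an adhesion receptor of the macrophage lineage, was at 7.94, 7.57, 7.36 and 7.66 in young and 8.92, 8.15, 8.17 and 8.77 in old arrays. Its difference was 0.87 (SE 0.18, adjusted p = 0.122), and here the fourth young array lay among its own group. Klrc1, a receptor of natural killer cells, was at 5.78, 5.84, 5.68 and 5.91 in young and 6.16, 6.47, 6.37 and 6.37 in old arrays (difference 0.54, SE 0.11). Il7r, the receptor of the T cell survival factor interleukin 7, was at 7.52, 7.63, 7.99 and 8.33 in young and 8.48, 8.60, 8.37 and 8.68 in old arrays, a difference of 0.67 (SE 0.15). The other 8 of the 12 largest were Stap1, an adaptor of B cells (0.60), Cd79b, a chain of the B cell receptor complex (0.53), Cd300e, a receptor of monocytes (0.58), the cilium genes Cfap100 (0.59), Tekt4 (0.53) and Hoatz (0.53), Fbxl13 (0.55) and BE692007 (0.62). The 9 genes Slc6a20a, Adgre4, Klrc1, Il7r, Stap1, Cfap100, Tekt4, Hoatz and Fbxl13 were called without young replicate 4.

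The 12 largest separations in the downward direction held the heat shock genes Hspa1b and Hsph1, the chemokines Cxcl1 and Cxcl14, the immediate early gene Nr4a3 and 7 genes of other kinds. Cxcl1, a chemokine that draws neutrophils, was at 6.30, 6.15, 6.18 and 6.03 in young and 5.93, 5.60, 5.46 and 5.84 in old arrays. The groups did not overlap and the difference was -0.45 (SE 0.10, adjusted p = 0.122). Slc1a7, a glutamate transporter, was at 6.29, 6.18, 6.29 and 6.28 in young and 5.76, 5.83, 5.93 and 5.84 in old arrays. It had the smallest unadjusted p of the genes named here (1.32e-05), with a difference of -0.42 (SE 0.07), and young replicate 4 did not stand apart. Il33, an alarm cytokine kept in the nucleus of alveolar and stromal cells, was at 9.56, 10.07, 9.48 and 9.37 in young and 9.18, 9.18, 9.31 and 9.17 in old arrays (difference -0.41, SE 0.13). Cxcl14, a chemokine of epithelium and stroma, was at 10.73, 10.48, 10.69 and 10.31 in young and 10.04, 10.31, 10.30 and 9.97 in old arrays (difference -0.40, SE 0.11). Of the other 8, Hspa1b (-1.50), Hsph1 (-0.57) and Nr4a3 (-0.56) are described below with their groups, and Hpd (-0.49), Olfr484 (-0.43), Nyap1 (-0.41), Tmem52 (-0.40) and H2al1m (-0.40) made up the rest. The 4 genes Slc1a7, Cxcl1, Cxcl14 and Tmem52 were called without young replicate 4.

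**Figure D3:**
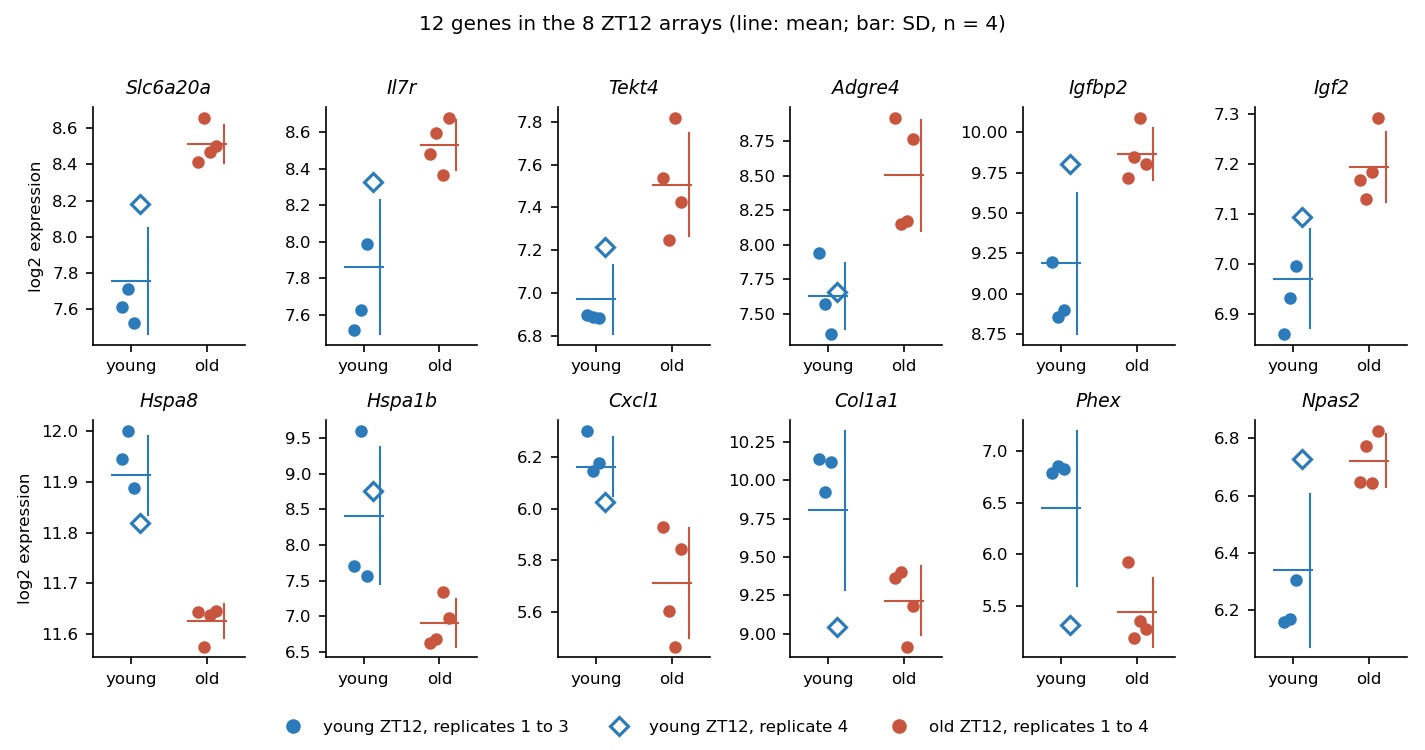
Log2 expression of 12 genes in the 8 ZT12 arrays, with replicates 1 to 4 drawn from left to right in each group; each point is an array, the open diamond is young replicate 4, lines are group means and bars are SD (n = 4). The old points lie apart from all young points for Slc6a20a, Il7r, Tekt4, Adgre4, Igf2, Hspa8, Hspa1b and Cxcl1, whereas for Igfbp2, Col1a1, Phex and Npas2 the diamond lies among the old points; each panel has its own axis, which does not start at 0.

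Most heat shock genes had lower means in old lungs at lights off, with 0 called with all arrays, and young replicate 4 lay with its own group. The list holds inducible and constitutive chaperones, which fold proteins and are induced through heat shock factor when proteins unfold. Their promoters are known for pairs of the pentamer nGAAn facing each other. Promoter stretches from RefSeq (GRCm38.p6) are read 5′ to 3′ on the gene's strand and end at the base before the annotated start. They are shown for some list members with such a pair in the 160 bases before the start, where these bases lay outside every annotated gene. The pair is in capitals.
Hspa1a, chr17:34972157-34972316, minus strand: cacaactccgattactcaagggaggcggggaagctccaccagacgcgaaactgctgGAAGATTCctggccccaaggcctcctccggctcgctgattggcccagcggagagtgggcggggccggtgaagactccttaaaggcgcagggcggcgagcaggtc
Hspa1b, chr17:34959239-34959398, minus strand: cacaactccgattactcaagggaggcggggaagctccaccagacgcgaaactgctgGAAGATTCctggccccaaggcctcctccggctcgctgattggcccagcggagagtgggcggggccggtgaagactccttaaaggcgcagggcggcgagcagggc
Hspb1, chr5:135887759-135887918, plus strand: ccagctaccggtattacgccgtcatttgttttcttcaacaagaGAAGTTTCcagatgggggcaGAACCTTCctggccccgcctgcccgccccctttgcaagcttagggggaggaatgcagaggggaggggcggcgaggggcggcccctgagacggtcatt

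The searched letters were GAANNTTC and TTCNNGAA, each its own reverse complement, so both strands were covered. In the 250 bases before the start, 12.8% of all 32851 promoters held at least 1 of them, and 7 of the 12 heat shock genes with a promoter in the table did: Fkbp4, Hspa1a, Hspa1b, Hspb1, Hspd1, Hspe1 and Hsph1. The share is per promoter, whereas a gene was counted if any of its promoters matched. A gene with several starts had more chances, so the gene count is not to be read against the share. A match is a description of these letters, not a site. The stretches of Hspa1a and Hspa1b share 159 of 160 bases, and the genes themselves are near-identical copies, so how the array divided their signal is uncertain.

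Hspa1b was at 7.71, 9.60, 7.56 and 8.76 in young replicates 1 to 4 and at 6.62, 6.68, 7.34 and 6.98 in old replicates 1 to 4. All old arrays lay below all young arrays, the young arrays were widely spread, and the difference was -1.50 (SE 0.47, 2.83-fold lower, adjusted p = 0.195). Hspa1a, its copy, was at 8.22, 10.36, 8.60 and 9.44 in young and 7.52, 7.71, 8.22 and 7.88 in old arrays (difference -1.32, SE 0.46, adjusted p = 0.208). Hspa8, the constitutive member of the same family, was far tighter, at 11.94, 12.00, 11.89 and 11.82 in young and 11.64, 11.57, 11.64 and 11.65 in old arrays. Its difference was -0.29 (SE 0.06, adjusted p = 0.122), its 3 other probe sets gave differences from -0.41 to -0.38, and it was called without young replicate 4 (-0.32, adjusted p = 0.0155). Hsph1, a co-chaperone of the HSP110 family, was at 8.83, 8.89, 8.52 and 8.82 in young and 8.21, 8.11, 8.29 and 8.19 in old arrays (difference -0.57, SE 0.18). Hspb1, a small heat shock protein whose promoter stretch is shown, overlapped between the ages, with a difference of -0.33 (SE 0.18, adjusted p = 0.437).

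Of the 15 tested members, 14 were lower in old lungs, against 48.2% of all genes, and the list median was -0.27, against 0.0047 over all genes tested. At an unadjusted p under 0.05, 9 were lower (5.82% of all genes) and 0 higher, 6 did not overlap (2.69% of all genes were lower without overlap), and 0 were called with all arrays. The array medians were -0.26, -0.05, -0.35 and -0.28 in young and -0.50, -0.48, -0.49 and -0.39 in old arrays, so the groups did not overlap. At ZT0 the list median difference was 0.07. Immediate early genes, transcription factors induced within minutes by handling, stress or growth signals, had a median of -0.17 over 21 genes. Of these 18 were lower in old lungs, 3 of them at an unadjusted p under 0.05 (5.82% of all genes), and 0 were called with or without young replicate 4. Nr4a3, an orphan nuclear receptor of this class, was at 6.55, 7.21, 6.43 and 6.77 in young and 5.88, 6.25, 6.31 and 6.29 in old arrays (difference -0.56, SE 0.32, adjusted p = 0.451). Egr1, a zinc finger factor, had a difference of -0.39 (SE 0.16, adjusted p = 0.287) with overlapping arrays. The part of time from death to freezing or of handling in these values was not tested.

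Most connective tissue genes had lower means in old lungs, with 0 called with all arrays, and on them young replicate 4 was the array furthest from its group. Fibrillar collagens give tensile strength and are made mainly by fibroblasts. Col1a1, which encodes a chain of type I collagen, was at 10.14, 9.92 and 10.12 in young replicates 1 to 3, at 9.04 in young replicate 4, and at 9.37, 9.40, 8.92 and 9.18 in old replicates 1 to 4. With all arrays its difference was -0.59 (SE 0.19, adjusted p = 0.195), and without young replicate 4 it was called (-0.84, SE 0.11, adjusted p = 0.00152). Col3a1, the chain of type III collagen, was at 9.82, 9.52, 9.98 and 8.79 in young and 8.94, 9.04, 8.35 and 8.84 in old arrays. The first 3 young arrays were above every old array and young replicate 4 lay within the old range. Its difference was -0.73 (SE 0.20, 1.66-fold lower, adjusted p = 0.153) and without that array -0.98 (SE 0.14, adjusted p = 0.00349). Col5a2, which regulates fibril width, was at 7.75, 7.64, 7.85 and 7.06 in young and 7.22, 7.28, 7.11 and 7.22 in old arrays, where the fourth young array was below all old ones.

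Of 18 fibrillar and basement membrane collagens, 17 were lower in old lungs and 7 of them at an unadjusted p under 0.05, with a median of -0.18. Over all genes 48.2% were lower, and 5.82% were lower at this p. Without young replicate 4 the median was -0.28 and 6 were called, all lower, against 0.755% of all genes: Col1a1, Col1a2, Col3a1, Col5a2, Col6a1 and Col6a2. The type IV chain Col4a3, a basement membrane gene, had a difference of -0.13 (SE 0.09) and was not called in either fit. Array medians were 0.26, 0.07, 0.25 and -0.25 in young and -0.11, 0.00, -0.21 and -0.17 in old arrays. Over all 39 tested genes with a collagen symbol, 37 were lower, 7 were called without young replicate 4, and the seventh was Col9a3 (-0.36 with all arrays), whose 8 arrays did not overlap.

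Among genes that assemble or modify the matrix, the place of young replicate 4 varied, from above every old array to below them. Serpinh1, the collagen chaperone HSP47, was at 8.86, 8.85, 8.76 and 8.50 in young and 8.39, 8.42, 8.40 and 8.37 in old arrays. Old arrays were all below young ones, the difference was -0.35 (SE 0.09, adjusted p = 0.139), and it was called without young replicate 4 (adjusted p = 0.0211). Plod2, which hydroxylates collagen lysines for cross-linking, was at 9.11, 9.11, 9.08 and 8.94 in young and 8.73, 8.83, 8.92 and 8.79 in old arrays (difference -0.24, SE 0.06). Mfap5, a microfibril protein, was at 9.57, 9.56 and 9.51 in young replicates 1 to 3 and at 8.82 in young replicate 4, against 8.92, 9.18, 9.0 and 8.92 in old arrays. Its difference was -0.36 (SE 0.13) with all arrays and -0.54 (SE 0.07, adjusted p = 0.00201) without that array. Of 29 tested elastic fibre and matrix enzyme genes, 21 were lower, against 48.2% of all genes, with a median of -0.14. Without young replicate 4, 5 were called, all lower, against 0.755% of all genes: Mfap5, Fbln1, Serpinh1, Sparc and Plod2. Eln, which encodes elastin itself, was at 9.06, 8.72, 8.88 and 8.34 in young and 8.60, 8.77, 8.39 and 8.70 in old arrays, with overlap and a difference of -0.13 (SE 0.13). Mmp2, a gelatinase of fibroblasts, was also lower (-0.31 with all arrays, -0.45 and called without young replicate 4). General fibroblast and lipofibroblast markers had a median of -0.04 over 19 genes. Without young replicate 4, 1 was called, the matrix gene Dpt (-0.33), against 1.9% of all genes.

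**Figure D4:**
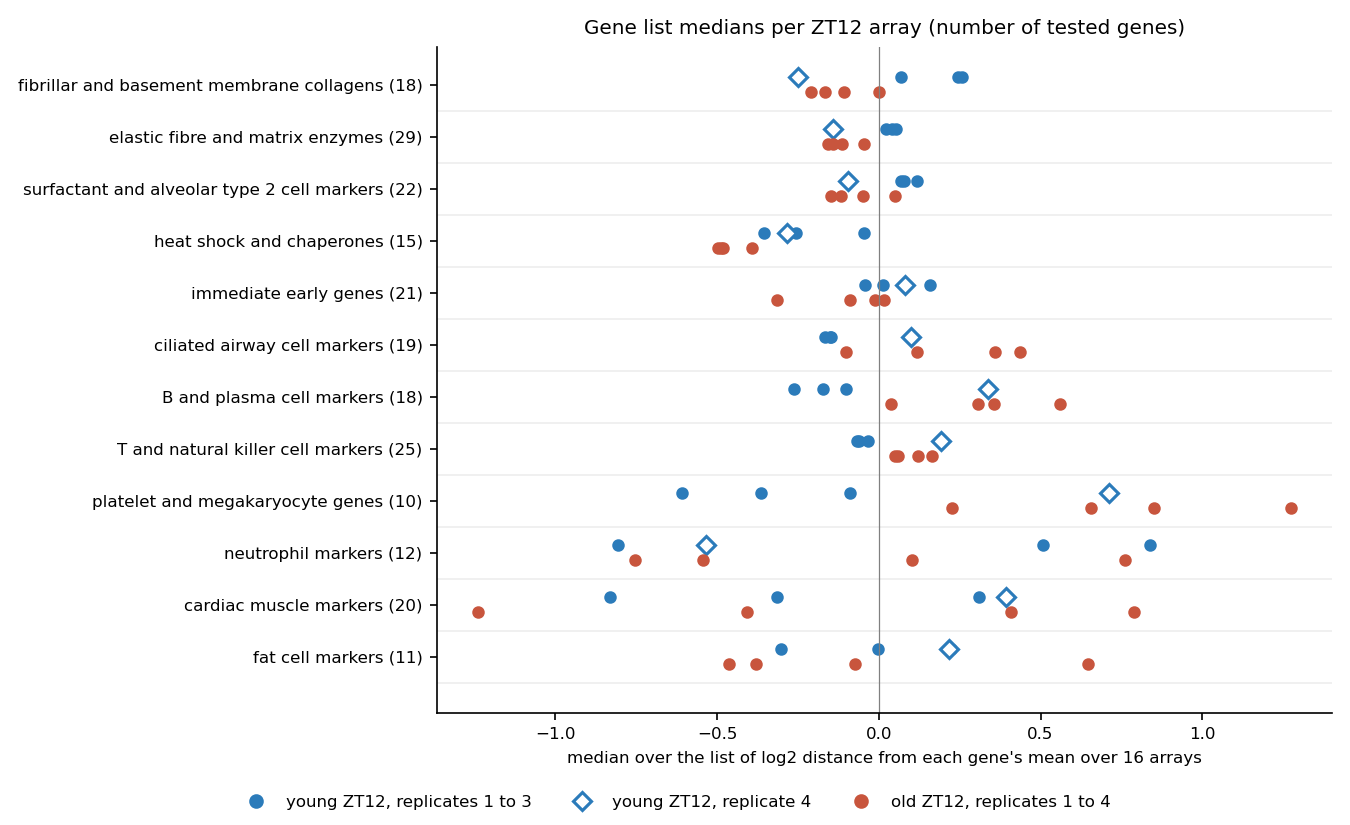
Median of 12 gene lists in each ZT12 array, as the log2 distance of each gene from its mean over all 16 arrays (x axis); each point is an array, the open diamond is young replicate 4, and the number of tested genes is in brackets. The diamond lies among the old arrays for elastic fibre, alveolar type 2, B cell and platelet genes, below all old arrays for collagens, and among the young arrays for heat shock genes, while neutrophil, cardiac and fat cell medians are spread over both ages.

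The insulin-like growth factor genes differed in both directions. Igfbp2, a secreted protein that binds insulin-like growth factors, was at 9.20, 8.86, 8.90 and 9.80 in young and 9.72, 9.85, 10.09 and 9.80 in old arrays. Young replicate 4 was within the old range and the other young arrays were below it. The difference was 0.68 (SE 0.16, 1.60-fold, adjusted p = 0.125) with all arrays and 0.88 (SE 0.10, adjusted p = 0.00132) without that array. Igf2, a growth factor of fetal tissues, was at 6.86, 6.93, 7.0 and 7.09 in young and 7.17, 7.13, 7.18 and 7.29 in old arrays, a small difference of 0.22 (SE 0.06) with no overlap. Igf1, the main growth factor of adult life, was at 7.53, 7.90, 7.76 and 7.30 in young and 7.27, 7.36, 7.35 and 7.26 in old arrays (difference -0.31, SE 0.11). Without young replicate 4 these were the 3 called genes of the 15 tested in this list, Igf1 lower and the other 2 higher. Over all genes, 0.755% were called lower and 1.15% higher in that fit. The receptor Igf1r, with 0.08, and Insr, with 0.00, were near 0.

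Among the other genes with the smallest adjusted p without young replicate 4, the downward ones again set that array with the old lungs. Phex, a membrane peptidase known from bone mineral control, was at 6.78, 6.86, 6.82 and 5.32 in young and 5.93, 5.20, 5.36 and 5.28 in old arrays. The difference was -1.0 (SE 0.26, adjusted p = 0.147) with all arrays and -1.38 (SE 0.14, adjusted p = 0.000545) without young replicate 4. The old mean of Phex and that of Veph1, a membrane-binding protein, lay below the level used to leave out dim genes (5.626), so their sizes are uncertain. Mboat2, a lysophospholipid acyltransferase, was at 7.57, 7.33, 7.69 and 6.29 in young and 6.70, 6.26, 6.74 and 6.43 in old arrays (-1.0 without young replicate 4, adjusted p = 0.00132). Itm2a, a membrane protein of mesenchyme and T cells, was at 8.20, 8.42, 8.33 and 7.80 in young and 7.83, 7.61, 7.70 and 7.66 in old arrays, and Ubtd2 had the smaller difference of -0.38 without that array. In the upward direction Bbox1, which makes carnitine, was at 5.73, 6.34, 5.79 and 6.97 in young and 7.16, 6.93, 7.41 and 7.04 in old arrays. Its difference was 0.93 (SE 0.20) with all arrays and 1.18 (SE 0.14, 2.27-fold, adjusted p = 0.00132) without young replicate 4. Nrn1, a neurite growth factor, was at 8.18, 8.29, 8.19 and 9.11 in young and 8.87, 9.07, 8.95 and 8.92 in old arrays, so the fourth young array was the highest of all 8. Prxl2a was at 8.72, 9.03, 8.82 and 9.33 in young and 9.34, 9.49, 9.35 and 9.47 in old arrays, with no overlap. Kif1a, a motor protein, and Cyp4f39, an epidermal fatty acid hydroxylase, were 0.68 and 0.94 higher without young replicate 4. In all, 8 called genes differed at least 2-fold without it: Igkv4-59, Jchain, Igh-VS107, Bbox1 and Gm4759 higher, and Phex, Prdm8 and Slurp1 lower.

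Most genes of motile cilia had higher means in old lungs, with 0 called with all arrays. Ciliated cells line the airways and clear mucus, and many of their genes are switched on through factors of the RFX family, which bind inverted repeats of GTTGCC. Promoter stretches are shown, as above, for some list members with these letters in the 80 bases before the start, where these bases lay outside every annotated gene. The letters are in capitals.
Dynlrb2, chr8:116504935-116505014, plus strand: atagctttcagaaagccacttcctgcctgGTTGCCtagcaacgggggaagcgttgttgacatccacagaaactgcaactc
Sntn, chr14:13670796-13670875, plus strand: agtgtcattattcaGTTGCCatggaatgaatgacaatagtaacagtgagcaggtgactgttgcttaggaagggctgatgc

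Searched on both strands in the 250 bases before the start, GTTGCC was in 10.4% of the 32851 promoters and in those of 7 of the 15 ciliated cell genes with a promoter in the table: Ccdc113, Cdhr3, Dynlrb2, Hydin, Mcidas, Sntn and Tekt1. Here too the share is per promoter and a gene was counted if any of its promoters matched, so they are not alike. Dynlrb2, a light chain of the dynein motor, was at 9.13, 9.08, 9.08 and 9.22 in young and 9.65, 9.19, 9.65 and 9.33 in old arrays (difference 0.33, SE 0.11, adjusted p = 0.198). Sntn, a protein of the cilium tip, was at 8.0, 8.09, 8.06 and 8.76 in young and 8.82, 8.23, 8.94 and 8.66 in old arrays (difference 0.44, SE 0.19). Tekt4, a filament of the axoneme, was at 6.90, 6.89, 6.89 and 7.21 in young and 7.54, 7.25, 7.82 and 7.42 in old arrays, with no overlap (difference 0.53, SE 0.14). Old replicate 2 was the lowest old array and young replicate 4 the highest young array in each of these 3 genes.

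Of 19 ciliated airway cell markers 17 were higher in old lungs (51.8% of all genes), 11 of them at an unadjusted p under 0.05 (8.73%), and the median was 0.29. With young replicate 4 left out, the 4 genes Hydin, Tekt4, Cdhr3 and Rsph1 were called higher and Mcidas lower, against 1.15% and 0.755% of all genes. Mcidas, an early regulator of multiciliated cells, was at 6.66, 6.63, 6.71 and 6.38 in young and 6.37, 6.18, 6.28 and 6.27 in old arrays (difference -0.32, SE 0.07, adjusted p = 0.122). Foxj1, the factor that keeps cells ciliated, had a difference of 0.16 (SE 0.16) and was not called. A second probe set of Hydin, a central pair protein, gave -0.03 where the one used gave 0.43, so that gene is uncertain. In the wider family of 71 tested genes with the symbols Cfap, Dnah, Dnaaf, Rsph, Drc, Spag or Tekt, 60 were higher, 38 of them at an unadjusted p under 0.05 (8.73% of all genes), and the median was 0.24. Of these, 11 were called without young replicate 4, all higher, against 1.15% of all genes: Cfap58, Cfap69, Cfap70, Cfap100, Dnaaf3, Dnaaf4, Drc7, Rsph1, Rsph14, Spag6l and Tekt4. The array medians of the marker list were -0.15, -0.17, -0.15 and 0.10 in young and 0.36, -0.10, 0.44 and 0.12 in old arrays. Club and secretory cell markers, from the same airways, had a median of -0.04 over 16 genes with 0 called, and how much airway each frozen piece held was not tested.

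Lymphocyte genes were mixed for T cells and of one sign for B cells, with 0 called with all arrays. T and natural killer cell markers had a median of 0.15 over 25 genes, 16 higher and 9 lower by sign, with 10 higher and 0 lower at an unadjusted p under 0.05 (8.73% and 5.82% of all genes). The 4 tested T cell receptor segments leaned the other way, with 3 lower and a median of -0.06. Il7r, Cxcr6, Cd28 and Cd8a were called without young replicate 4, all higher, against 1.15% of all genes. Cxcr6, a chemokine receptor of lymphocytes that settle in tissue, was at 6.01, 5.64, 6.07 and 6.24 in young and 6.44, 6.39, 6.46 and 6.37 in old arrays (difference 0.43, SE 0.11, adjusted p = 0.136). Cd8a, a chain of the coreceptor of cytotoxic T cells, was at 6.63, 6.74, 6.57 and 7.21 in young and 7.30, 7.59, 6.92 and 7.46 in old arrays (difference 0.53, SE 0.17). Cd28, a costimulatory receptor, separated the groups with a difference of 0.34 (SE 0.10). Prf1, the pore-forming protein of killer cells, had a difference of -0.12 (SE 0.11), and the regulatory T cell factor Foxp3 one of -0.17. Array medians were -0.03, -0.07, -0.06 and 0.19 in young and 0.12, 0.06, 0.05 and 0.16 in old arrays, so young replicate 4 was the highest of all 8.

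All 18 tested B and plasma cell markers were higher in old lungs, against 51.8% of all genes, with a median of 0.48. Of these, 6 had an unadjusted p under 0.05, against 8.73% of all genes. Blk, a kinase of B cells, was at 7.09, 7.03, 7.26 and 7.38 in young and 7.97, 7.53, 7.61 and 7.73 in old arrays, with no overlap (difference 0.52, SE 0.16, adjusted p = 0.188). Cd22, an inhibitory receptor, was at 7.64, 7.59, 7.50 and 8.19 in young and 8.54, 8.18, 8.22 and 8.44 in old arrays (difference 0.61, SE 0.20). Jchain, which links antibody molecules in plasma cells, was at 7.36, 5.77, 6.10 and 10.29 in young and 8.87, 7.77, 9.27 and 8.37 in old arrays. The fourth young array was thus higher than any old array, and the difference was 1.19 (SE 0.73, adjusted p = 0.476) with it and 2.16 (SE 0.45, 4.46-fold, adjusted p = 0.0322) without it. The antibody heavy chain gene Ighm also had young replicate 4 as the highest of all 8 arrays, at 11.39, 10.16, 10.07 and 13.06 in young and 11.96, 11.27, 12.07 and 11.57 in old arrays. Over 15 tested immunoglobulin segments, which share sequence with each other, the median was 0.64 with all arrays and 1.42 without young replicate 4, and 1, Igkv4-59, was called without it. Of the B and plasma cell markers Jchain and Pou2af1 (0.65, adjusted p = 0.045) were called without it, against 1.15% of all genes called higher. Chemokines and receptors of lymphoid follicles had a median of 0.21 over 10 genes, 4 of them higher at an unadjusted p under 0.05 (8.73% of all genes) and 0 called.

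Platelet genes were higher by sign with a large spread, and 0 were called. Of 10 tested members 10 were higher (51.8% of all genes) and 7 had an unadjusted p under 0.05 (8.73%), with a median of 0.80, and 0 passed in either fit. Tubb1, the platelet tubulin, was at 9.01, 9.56, 8.51 and 10.59 in young and 10.52, 11.24, 10.01 and 10.37 in old arrays (difference 1.12, SE 0.44, adjusted p = 0.265). Pf4, a chemokine stored in platelet granules, was at 7.28, 7.64, 7.26 and 8.29 in young and 8.61, 8.82, 8.10 and 8.34 in old arrays (difference 0.85, SE 0.33). Array medians were -0.36, -0.09, -0.61 and 0.71 in young and 0.85, 1.28, 0.23 and 0.66 in old arrays. How completely each lung was flushed of blood, and its part in these values and in those of the lymphocytes, was not tested. Only 2 red blood cell genes were tested, and their medians overlapped, from -0.32 to 0.33 in young and from -0.13 to 0.93 in old arrays. Neutrophil markers had a median of -0.08 over 12 genes with all arrays and -0.23 without young replicate 4. In either fit 11 were lower by sign and 0 were called, and 0 had an unadjusted p under 0.05 with all arrays. Their array medians ran from -0.81 to 0.84 in young and from -0.75 to 0.76 in old arrays.

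Macrophage markers had 0 calls in either fit, and some cytokine genes were called without young replicate 4. Interstitial macrophage and monocyte markers had a median of 0.08 over 16 genes, with Csf1r, the receptor of the macrophage growth factor, at 9.68, 9.42, 9.39 and 9.42 in young and 9.78, 9.74, 9.66 and 9.74 in old arrays (difference 0.25, SE 0.08). Alveolar macrophage markers had a median of -0.08 over 13 genes, with 5 higher and 8 lower by sign and 0 called. At an unadjusted p under 0.05, 2 were higher and 1 was lower (8.73% and 5.82% of all genes). Among them the scavenger receptor Marco had a difference of -0.52 (SE 0.24). Of 25 inflammatory cytokines and chemokines 1 was higher and 4 were lower at an unadjusted p under 0.05, against 8.73% and 5.82% of all genes, and 4 did not overlap, all lower (2.69% of all genes). Tnf was at 6.38, 6.09, 6.28 and 6.81 in young and 6.96, 6.64, 6.81 and 6.77 in old arrays (difference 0.41, SE 0.13). Tnf was called higher without young replicate 4, and Cxcl1 and Cxcl14 lower, which is 3 of 25 genes against 1.9% of all genes. Ccl22, a chemokine of dendritic cells, was also called lower (-0.55, adjusted p = 0.0137).

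In alveolar epithelium the differences were small and mostly downward. Of 22 type 2 cell and surfactant genes 21 were lower in old lungs (48.2% of all genes), 6 at an unadjusted p under 0.05 (5.82%), with a median of -0.10. Lyz1, a lysozyme of type 2 cells, was at 11.81, 11.85, 11.77 and 11.04 in young and 11.05, 11.27, 10.76 and 11.08 in old arrays. Young replicate 4 stood below the other young arrays, and the difference was -0.58 (SE 0.16) with it and -0.77 (SE 0.12, adjusted p = 0.00535) without it. Muc1, a surface mucin, and Lamp3, of the lamellar bodies that store surfactant, were also called without it (-0.29 and -0.30). These 3 called genes of 22 stand against 0.755% of all genes called lower. Hhip, an inhibitor of hedgehog signals, was lower by 0.35 with all arrays and called without young replicate 4 (-0.52, adjusted p = 0.0165). Type 1 cell markers had a median of 0.00 over 18 genes, and 1, Igfbp2, was called without young replicate 4, against 1.9% of all genes. Detoxification and oxidant defence genes had a median of 0.05 over 27 genes with 7 higher and 1 lower at an unadjusted p under 0.05 (8.73% and 5.82% of all genes). Cyp1a1, induced through the aryl hydrocarbon receptor, was at 6.56, 6.60, 6.63 and 7.48 in young and 6.98, 7.63, 7.64 and 7.26 in old arrays (difference 0.56, SE 0.21). Gclm, for glutathione synthesis, and Gstm2, which uses glutathione, separated the groups with differences of 0.25 (SE 0.07) and 0.30 (SE 0.08). Without young replicate 4, Cyp1a1, Gclm and Gstm2 were called, all higher, against 1.15% of all genes.

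With all arrays, clock genes that peak towards evening differed little between the ages at lights off. Npas2 and Arntl of the morning set were higher at an unadjusted p under 0.05. Of 11 tested evening genes 9 were lower by sign in either fit, and 0 were called without young replicate 4. With all arrays 0 had an unadjusted p under 0.05, whereas Dbp, Hlf and Per3 did without young replicate 4. The list median was -0.09 with all arrays and -0.16 without that array. Without it the differences were -0.34 (SE 0.12) for Dbp, -0.29 (SE 0.13) for Hlf and -0.21 (SE 0.09) for Per3. Nr1d2 (-0.21) then did not overlap between the ages. The values that follow are with all arrays. Dbp, an output factor of the clock, was at 10.78, 11.07, 10.97 and 10.37 in young and 10.69, 10.38, 10.84 and 10.50 in old arrays (difference -0.20, SE 0.14). Nr1d1, a repressor of the activator arm, was at 10.39, 10.60, 10.30 and 10.03 in young and 10.16, 10.39, 10.21 and 10.35 in old arrays (difference -0.05, SE 0.15). The other differences were 0.21 for Bhlhe41, 0.08 for Cry2, -0.01 for Bhlhe40, -0.02 for Ciart, -0.09 for Tef, -0.12 for Per3, -0.13 for Per1, -0.14 for Nr1d2 and -0.24 for Hlf. Genes near 0 here changed sign with the scaling or with an array left out. Of 6 genes of the morning set, 2, Npas2 and Arntl, were higher at an unadjusted p under 0.05 (8.73% of all genes). Npas2, a partner of BMAL1, was at 6.16, 6.17, 6.30 and 6.73 in young and 6.65, 6.77, 6.64 and 6.83 in old arrays. Its difference was 0.38 (SE 0.10, adjusted p = 0.148), and without young replicate 4 it was called (0.51, SE 0.07, adjusted p = 0.00201). Arntl, which encodes BMAL1, was at 6.85, 6.68, 6.48 and 7.19 in young and 6.82, 7.79, 6.97 and 7.53 in old arrays (difference 0.47, SE 0.18, adjusted p = 0.248). Cry1 (-0.18), Rora (-0.10), Nfil3 (-0.13) and Clock (-0.01) overlapped between the ages.

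The age difference at lights off was set beside that at lights on. The 2 differences share no array, but each gene's spread was estimated over all 16 arrays for both. At ZT0 limma called 324 genes (2.07%), 218 higher (1.4%) and 106 lower (0.678%) in old lungs. This count moved with single arrays and with the level of cardiac markers: it was 25 to 527 with each array left out in turn and 5 when the median of the cardiac markers was added as a covariate. Of the 324 genes, 307 had the same sign at ZT12 with all arrays and 312 without young replicate 4, against 66.4% of all genes tested. Of the 25 called without old ZT0 replicate 4, 23 had the same sign at ZT12, as did 4 of the 5 called with the cardiac covariate. The 218 higher genes had a median of 0.26 at ZT12, where 144 had an unadjusted p under 0.05 (8.73% of all genes) and 59 did not overlap (4.37%). The 106 lower genes had a median of -0.14, with 45 at an unadjusted p under 0.05 (5.82% of all genes) and 8 without overlap (2.69%). A gene with a small shared spread tends to a small p at both times, so these counts are not independent of the choice. Across genes the ZT12 and ZT0 differences had Pearson's r = 0.509 (n = 15626 genes, which are not independent) and 0.591 without young replicate 4. Genes called both at ZT0 with all arrays and at ZT12 without that array numbered 84. This is 25.9% of the ZT0 calls, where 1.9% of all genes were called at ZT12. It is 28.3% of the ZT12 calls, where 2.07% of all genes were called at ZT0.

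**Figure D5:**
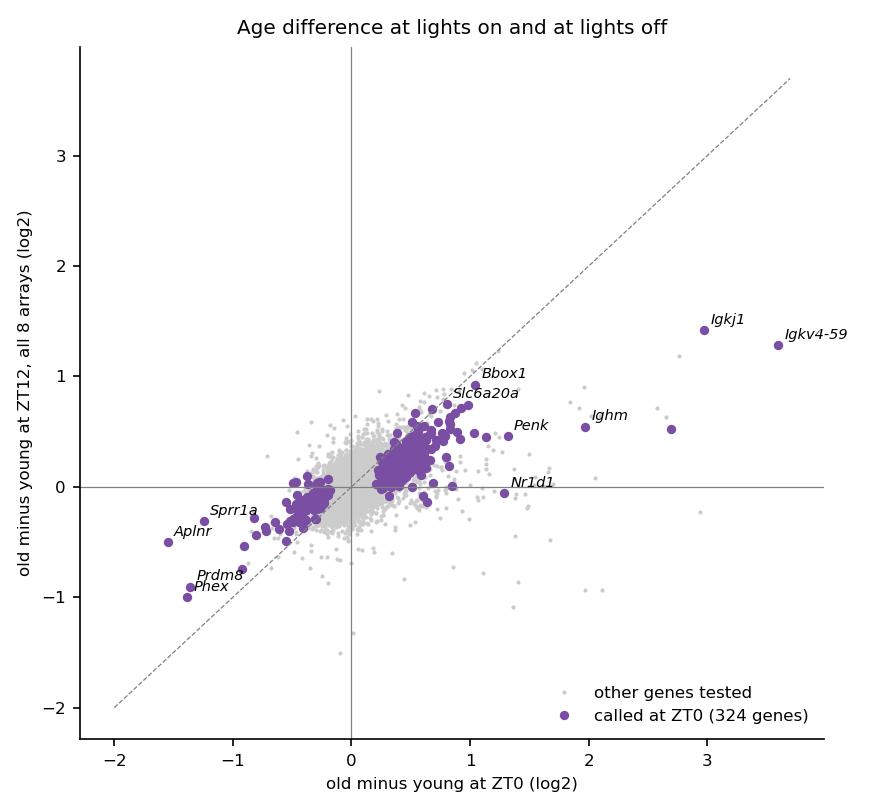
Old minus young log2 difference of each gene at ZT0 (x axis) and at ZT12 with all 8 arrays (y axis); purple points are the 324 genes called at ZT0, grey points the other genes tested, and the dashed line marks equal differences. Most purple points have the same sign at both times (307 of 324). They were chosen for their ZT0 differences, a choice that favours smaller differences at ZT12, and its part in these values was not tested. Nr1d1 is at 1.29 at ZT0 and -0.05 at ZT12.

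The genes with the largest ZT0 differences were chosen on the ZT0 arrays, so their ZT0 values are given beside the ZT12 values as the basis of the choice. Prdm8, a transcriptional regulator, was at 7.68, 7.89, 7.95 and 6.65 in young and 6.61, 6.73, 6.51 and 6.72 in old arrays, a difference of -0.90 (SE 0.27) at ZT12 beside -1.36 at ZT0. Aplnr, the apelin receptor of endothelium, was at 8.61, 8.33, 8.69 and 7.45 in young and 7.94, 7.65, 7.92 and 7.58 in old arrays (-0.50 beside -1.55). Capn6 (-0.53), Tnc, a matrix glycoprotein of repair (-0.44), Sprr1a, a cornified envelope protein (-0.31), and Nrep (-0.28) were also negative at ZT12, and of these Capn6 was called without young replicate 4. Penk, which encodes enkephalins, had 0.46 beside 1.32, and Il23r, a cytokine receptor of T cells, 0.45 beside 1.14. The immunoglobulin light chain segments Igkj1 and Igkv4-59 had 1.42 and 1.28 at ZT12, where young replicate 4 was at 8.41 and 8.88, and another kappa segment had 0.52. The young mean of Igkv4-59 was below the level used to leave out dim genes.

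The test of the difference itself, the age by time interaction, called 0 of 15626 genes (0%), with 770 (4.93%) at an unadjusted p under 0.05. The heat shock and Cxcl1 differences, which were near 0 at ZT0, therefore did not pass as differing between the times: Hspa1b had an interaction of -1.40, Hspa8 one of -0.24 and Cxcl1 one of -0.42, each with an adjusted p of 0.942. Without young replicate 4, 2 genes passed (0.0128%), both of the clock. Npas2 had an interaction of 0.87 (SE 0.09, adjusted p = 0.00279), with old minus young at -0.35 at ZT0 and 0.51 at ZT12. Nr1d1 had one of -1.44 (SE 0.21, adjusted p = 0.0413). With all arrays these were 0.74 (adjusted p = 0.342) and -1.34 (adjusted p = 0.174).

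Several other lists had no called member at lights off. Without young replicate 4, 0 genes were called of 18 senescence and p53 targets, 20 interferon response genes, 14 complement genes, 15 major histocompatibility genes, 29 cell cycle genes, 20 vascular endothelial markers, 14 glucocorticoid response genes, 25 respiratory chain genes or 19 proteasome subunits, and at 1.9% of all genes lists of these sizes hold too few genes for a count of 0 to say anything about them. By sign, 23 of the 29 cell cycle genes were lower, 5 at an unadjusted p under 0.05 (5.82% of all genes), and 14 of the 15 major histocompatibility genes were higher with a median of 0.07. Cdkn2a, a marker of senescent cells, was at 6.75, 6.88, 6.62 and 6.79 in young and 6.80, 6.74, 6.61 and 6.72 in old arrays. Cdkn1a, another cell cycle inhibitor, had a difference of 0.16 (SE 0.21). Array medians of 20 cardiac muscle markers were -0.83, 0.31, -0.32 and 0.39 in young and 0.41, -1.24, 0.79 and -0.41 in old arrays, which overlap widely. The source of the cardiac transcripts in these lung pieces was not tested. Those of 11 fat cell markers ran from -0.30 to 0.22 in young and from -0.46 to 0.65 in old arrays.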

How the data were processed

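Affymetrix whole-transcript arrays were hybridised with labelled DNA from 300 ng of lung RNA, per the labels' protocols. As deposited, values are log2 levels normalized by the authors; the method is not given in the sources used here, and the log2 scale was read from the values. The platform annotation gave a single symbol to 23521 of the 41345 probe sets. The brightest was taken for each gene, and 15626 of 22180 genes had a mean at or above the 30th percentile (log2 5.626) and were tested. No detection calls were used, so signal over background was not assessed. The number of arrays limits the precision.

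Old and young were compared by limma 3.58.1 under R 4.3.3 (2-sided, a mean per group over 16 arrays, eBayes, Benjamini-Hochberg adjustment over all genes tested), with and without young ZT12 replicate 4. Called genes had an adjusted p under 0.05. On simulated data for these genes, 76% of differences of 0.5 and 97% of 1 were recovered with all arrays (6 false calls), and 77% and 91% without that array (14 false calls). The simulated noise was drawn separately for each gene and array, with no array displaced across many genes as young replicate 4 was. These shares therefore check the fit only, and do not say how many true differences the real arrays could have missed. The members, the 49 gene lists and the 13 symbol families were chosen with earlier results of these data known. Named genes were the 12 largest differences in each direction without overlap, the 8 smallest adjusted p in each direction without young ZT12 replicate 4, the 8 largest ZT0 differences in each direction, all tested clock genes, up to 4 members of each described list, and others that make up a count or were chosen after their values were seen. These ranks skipped predicted genes, clones and small RNAs. List medians per array were taken over each gene's distance from its mean over 16 arrays. Plots were drawn with matplotlib 3.10.9.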

Additional observations from a re-analysis of the deposited data

Results flagged for a closer look

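Each value here was farther from the rest of its group of 4 than Dixon's critical value for 4 samples allows; chance alone gives about 1 such value in 20 groups, and 38 of 404 group values passed it, 21 of them in young replicate 4. Many of these genes were chosen on the fit without that array, which favours genes where it stands apart, so the count is not to be read against the chance rate.

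In young replicate 4, matrix, stromal and alveolar genes stood below the other young arrays: Mfap5 at 8.82 against 9.51 to 9.57, Col1a2 at 9.26 against 9.90 to 10.01, Col6a1 at 10.16 against 10.56 to 10.62, Hhip at 8.97 against 9.60 to 9.65 and Lyz1 at 11.04 against 11.77 to 11.85. Phex was at 5.32 against 6.78 to 6.86, Veph1 at 5.48 against 6.21 to 6.35 and Ubtd2 at 8.01 against 8.50 to 8.59. Cilium genes stood above: Tekt4 at 7.21 against 6.89 to 6.90, Rsph1 at 8.43 against 7.80 to 7.84, Tekt1 at 7.49 against 7.06 to 7.13, Sntn at 8.76 against 8.0 to 8.09 and Drc7 at 7.90 against 7.49 to 7.55. Also above were Cyp1a1 at 7.48 against 6.56 to 6.63, Cyp4f39 at 7.42 against 6.41 to 6.45, Nqo1, a quinone reductase, at 7.39 against 7.08 to 7.12, Nrn1 at 9.11 against 8.18 to 8.29 and Gm4759 at 7.33 against 6.29 to 6.40. Its list medians were -0.14 for elastic fibre genes against 0.02 to 0.05, 0.19 for T and natural killer cell markers against -0.07 to -0.03, and 0.10 for ciliated cell markers against -0.17 to -0.15. In each of these genes the array departed toward the old mean.

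In other young arrays, replicate 1 was high in Csf1r (9.68), Klrk1, a receptor of natural killer cells (6.01), and Sprr1a (6.32). Replicate 2 was high in Hpd (7.02) and the chaperone gene Chordc1 (9.26) and low in Slc1a7 (6.18), and replicate 3 was low in Nfil3 (6.78). Hpd was between 6.03 and 6.16 in the other young arrays, and its difference of -0.49 was -0.25 without that array.

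In old arrays, replicate 1 was low in Nr4a3 (5.88). Replicate 2 was low in Hspa8 (11.57) and in the club cell gene Scgb1a1 (13.28 against 13.40 to 13.42) and high in Irs2, an insulin signalling adaptor (8.22), and Col6a2 (8.76). Replicate 3 was high in Il33 (9.31) and Per1 (10.84) and low in Pdpn, a type 1 cell protein (11.16), and replicate 4 was high in Nr4a1 (9.44) and in the median of the heat shock genes (-0.39 against -0.50 to -0.48).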

How the results depend on the processing

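With all arrays, 0 genes were called under the stricter filter, quantile normalization, median centring, trended eBayes, every probe set, the ZT12 arrays alone or the cardiac covariate. With no filter 1 was called, the dim keratin gene Krt14 (-0.54), array weights gave 43, and averaging the age difference over both times gave 1146. With 1 array left out the count was 0 to 297, all of the latter without young ZT12 replicate 4. Without that array, the 297 became 127 with no filter and 86 with the ZT12 arrays alone, and 77 to 446 with 1 more array left out: 112, 77 and 78 without young ZT12 replicates 1 to 3, 115, 446, 112 and 97 without old ZT12 replicates 1 to 4, and 182 without young ZT0 replicate 1. Quantile normalization gave 147 higher and 149 lower beside 179 and 118. The ZT0 count of 324 was 25 to 527 with 1 array left out and 5 with the cardiac covariate, and the interaction gave 0 to 2. The cause of these moves was not tested.

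Replicate numbers showed no sign of pairing the ZT12 arrays. After each gene's group mean was subtracted, young and old arrays of the same number correlated at -0.22 to -0.02. By this measure 0 of 4 young arrays correlated best with the old array of their own number. With 4 pairs this cannot establish that the numbers carry no pairing. With the replicate block, 0 and 260 genes were called with all arrays and without young replicate 4.

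Some uncalled genes changed sign; most were near 0, but Cidec (-0.34), Ly6g (-0.31) and Ngp (-0.21) were not. Averaged over both times the differences were 0.038 for Bhlhe40, 0.077 for Cidec, 0.0019 for Lcn2, 0.22 for Nppb, 0.62 for Nr1d1, 0.25 for Nr1d2, 0.0090 for Tef, -0.0024 for Ager and -0.030 for Pecam1. With median centring they were 0.00087 for Bhlhe40 and 0.00023 for Clock, and with array weights 0.0084 for Clock. With 1 array left out the ranges were -0.042 to 0.023 for Bhlhe40, -0.10 to 0.050 for Ciart, -0.063 to 0.056 for Clock, -0.0052 to 0.14 for Cry2, -0.72 to 0.079 for Ly6g, -0.47 to 0.10 for Ngp, -0.16 to 0.034 for Nr1d1, -0.043 to 0.0036 for Scgb1a1 and -0.013 to 0.057 for Ager. The ZT0 and interaction repeats, and those leaving out a ZT0 array, were chosen after seeing the data.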

Other observations

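Some gene families outside the lists above also leaned one way at lights off. Of 56 tested cytosolic ribosomal protein genes, which build the translation machinery, 42 were higher in old lungs against 51.8% of all genes, with a median of 0.06 and 0 called with all arrays. Of 1105 olfactory receptor genes, 92 were bright enough to be tested, and whether their signal was above background was not assessed. Of these, 71 were lower (48.2% of all genes) with a median of -0.11 and 13 lower at an unadjusted p under 0.05 (5.82% of all genes). Without young replicate 4, 64 were lower, against 8155 of 15626 genes, with a median of -0.07. Their array medians overlapped, and 0 were called with all arrays. Solute carrier genes, which encode membrane transporters, were close to even, with 163 of 288 higher. Cxcl9, a chemokine induced by interferon gamma, was at 5.92, 6.18, 5.76 and 6.53 in young and 5.64, 5.27, 5.89 and 5.19 in old arrays (difference -0.60, limma adjusted p = 0.174), and young replicate 4 was the array farthest from the old ones. Its old mean was below the level used to leave out dim genes (5.626), so the size is uncertain.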
